A study of Rattus norvegicus with 8 samples.

Results

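In the hippocampus of adrenalectomized rats, 10 genes of the endothelium, the cell layer that lines blood vessels, were followed after an infusion of corticosterone: Apold1, Clec14a, Cldn5, Pecam1, Flt1, Kdr, Tek, Tie1, Esam and Vwf. With CORT, Apold1 was 2.55-fold higher than with vehicle, Clec14a and Kdr were 2.11-fold and 2.01-fold lower, and the other genes differed by less than 1.5-fold. The genes were chosen by name, with the CORT and vehicle levels of Apold1, Clec14a and the others already known, so the differences between the groups are given as a description, without a test. Of the 10 genes, 9 have a row in the table, with 1 transcript each, among 16266 transcripts of 13272 gene symbols. Pecam1, an adhesion molecule of endothelium and platelets, has no row under that symbol and was not analysed here. All 9 transcripts had at least 1 FPKM in both groups, so no gene with a row was lost to the filter on low values. FPKM is a fragment count scaled to the length of the transcript and to the number of mapped fragments, so levels can be set side by side between genes.

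The study asked which hippocampal genes respond directly to corticosteroids. Whole hippocampi were taken from 8 rats, labelled as Sprague-Dawley and aged 3 to 4 months, whereas the methods name male Lister hooded rats and give a younger age. The adrenal glands of every rat in both groups had been removed. The rats then recovered with corticosterone in saline to drink, which was replaced by saline alone before the experiment. The vehicle group of 4 rats received 0.45% saline, and the CORT group of 4 rats received corticosterone complexed with 2-hydroxypropyl-β-cyclodextrin at 0.75 mg/mL, each infused into a vein for 30 min from zeitgeber time (ZT) 2. The hippocampi were collected 2 h after the infusion began. The table holds 1 level per group and none per rat, so the spread between rats could not be computed, no difference was checked against it here, and whether the groups overlap cannot be said from these levels. The table gives no depth for the libraries either. The median level over all transcripts was 9.22 FPKM in vehicle rats and 9.38 FPKM in CORT rats.

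The endothelium of brain vessels forms the blood-brain barrier, in which tight junctions seal the gaps between cells and transporters move selected molecules across. Growth factors of the VEGF family act on it through the receptors encoded by Flt1 and Kdr, and angiopoietins act through the receptor encoded by Tek, for which Tie1 encodes a partner. Apold1 is known as an early response gene of the endothelium, whereas Clec14a encodes a surface lectin that endothelial cells carry. Glucocorticoids are known to act on brain endothelium and to tighten its barrier.

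RefSeq promoters of the GRCr8 assembly were matched by symbol for 6 of the 10 genes, Apold1, Clec14a, Cldn5, Flt1, Kdr and Tie1, and not for Pecam1, Tek, Esam and Vwf. For each gene the first promoter listed was taken. The set holds 33469 promoters for 27457 gene ids, so some genes have more than 1. Whether these starts are those of the transcripts measured here was not checked. The promoters of the 3 genes that differed by at least 1.5-fold are shown here, with that of Flt1 beside Kdr, its fellow VEGF receptor. Each is the 250 bases before the transcript start, 5′ to 3′ on the strand of the gene. The windows are chr4:169552349-169552598 on the plus strand for Apold1, chr6:81619557-81619806 on the minus strand for Clec14a, chr14:32571813-32572062 on the plus strand for Kdr and chr12:12333180-12333429 on the plus strand for Flt1. Capitals mark matches to the motifs described in the next paragraph.
Apold1: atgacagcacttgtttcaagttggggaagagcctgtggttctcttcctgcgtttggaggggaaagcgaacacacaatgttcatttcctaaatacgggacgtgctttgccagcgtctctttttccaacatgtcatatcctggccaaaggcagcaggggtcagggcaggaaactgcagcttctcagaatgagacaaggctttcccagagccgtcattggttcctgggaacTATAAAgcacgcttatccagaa
Clec14a: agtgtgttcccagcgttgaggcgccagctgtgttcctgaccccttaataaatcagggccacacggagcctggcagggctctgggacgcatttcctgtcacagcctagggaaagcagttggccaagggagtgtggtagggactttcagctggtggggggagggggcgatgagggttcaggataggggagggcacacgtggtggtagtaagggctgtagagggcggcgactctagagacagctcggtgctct
Kdr: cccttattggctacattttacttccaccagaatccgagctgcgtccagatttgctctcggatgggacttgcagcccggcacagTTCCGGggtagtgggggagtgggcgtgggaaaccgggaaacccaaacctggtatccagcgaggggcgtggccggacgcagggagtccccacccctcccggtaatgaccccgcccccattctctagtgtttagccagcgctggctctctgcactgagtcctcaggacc
Flt1: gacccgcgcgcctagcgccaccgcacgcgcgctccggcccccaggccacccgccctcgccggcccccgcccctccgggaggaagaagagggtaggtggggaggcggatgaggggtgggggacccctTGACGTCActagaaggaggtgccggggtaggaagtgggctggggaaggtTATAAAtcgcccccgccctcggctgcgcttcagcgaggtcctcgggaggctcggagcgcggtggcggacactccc

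The motifs were searched on both strands in the 250 bases before the start and the 50 after it. The motif TGTTCT, one arm of the palindrome bound by the glucocorticoid receptor, was in none of the 6 promoters, and it is in 20.7% of the 33469 promoters in the table. The AP-1 core TGACTCA was also in none of the 6, against 4.63% of all promoters. The ETS core CCGGAA, bound by a family of factors that includes endothelial regulators, was found in Kdr alone, once on the minus strand from 167 to 162 bases before the start and once on the plus strand between bases 33 and 38 after it. It is in 15.0% of all promoters. The cyclic AMP element TGACGTCA was found in Flt1 alone, from 124 to 117 bases before the start, against 1.83% of all promoters. The TATA box letters TATAAA, a motif added after the sequences had been seen, lie from 22 to 17 bases before the start of Apold1 and from 75 to 70 bases before that of Flt1, and they are in 14.2% of all promoters. These matches describe the letters in these windows and say nothing of binding.

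Apold1, on chromosome 4 of rn6 between 168752132 and 168755023, had the lowest level of the 9 genes with vehicle and was the one gene past 1.5-fold upwards with CORT. It was at 1.61 FPKM in vehicle rats and 4.10 FPKM in CORT rats, a log2 ratio of 1.35. The order of the levels changed with it, since Apold1 was the ninth of 9 genes with vehicle and the sixth with CORT. Among 15808 transcripts with 1 FPKM or more in either group, 180 had a higher ratio, which is 1.14%. Its share of the summed level of the 9 genes was 5.11% with CORT. Its level is low, and the ratio shrinks to 0.97 on the log2 scale when 1 FPKM is added to both values.

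Clec14a, on chromosome 6 between 79303303 and 79306443, went the other way. It was at 2.80 FPKM in vehicle rats and 1.33 FPKM in CORT rats, a log2 ratio of -1.07, and 247 transcripts had a lower ratio. The levels of Apold1 and Clec14a thus changed places. With vehicle, Clec14a was 1.75 times as high as Apold1, whereas with CORT Apold1 was 3.08 times as high as Clec14a. On the log2 scale the ratios of these 2 genes lie 2.43 apart, and Apold1 lies 1.61 above the median of the other 8 genes.

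**Figure D1:**
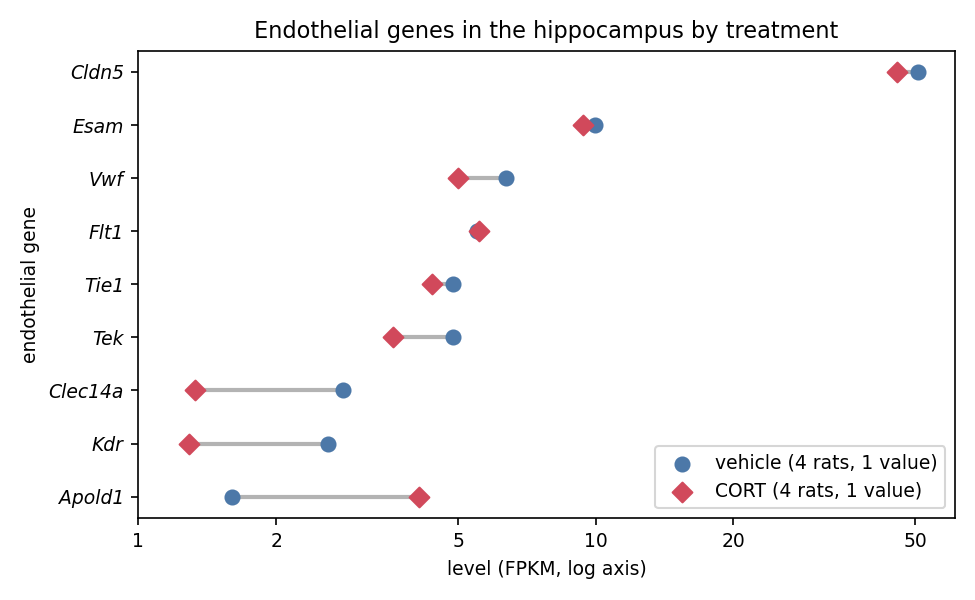
Levels of the 9 endothelial genes on a log axis in FPKM, with a circle for the vehicle group and a diamond for the CORT group, each a single group value without an error. Apold1 is the one gene whose CORT value lies far to the right of its vehicle value, and Clec14a and Kdr have the longest shifts to the left.

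The genes of the 2 VEGF receptors had unlike ratios. Kdr, on chromosome 14 between 34727622 and 34787183, encodes the main signalling receptor for VEGF-A. It was at 2.60 FPKM in vehicle rats and 1.29 FPKM in CORT rats, a log2 ratio of -1.01 that is close to that of Clec14a, and 275 transcripts had a lower ratio. Flt1, on chromosome 12 between 9034307 and 9205905, encodes a receptor that binds VEGF-A tightly and signals weakly. It was at 5.50 FPKM in vehicle rats and 5.55 FPKM in CORT rats, a log2 ratio of 0.01. The level of Flt1 was 2.11 times that of Kdr with vehicle and 4.29 times with CORT. The table lists 1 transcript for each, so a shift between isoforms, such as the soluble form of Flt1, was not analysed here.

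Tek and Tie1 stood at about the same level with vehicle, and with CORT the level of Tie1 was 1.22 times that of Tek. Tek, on chromosome 5 between 113725716 and 113852799, encodes the angiopoietin receptor, and was at 4.88 FPKM in vehicle rats and 3.60 FPKM in CORT rats. Its log2 ratio was -0.44. Tie1, on chromosome 5 between 137294531 and 137321101, was likewise at 4.88 FPKM with vehicle, and at 4.38 FPKM with CORT, a log2 ratio of -0.16. Both ratios are short of 1.5-fold, and they were not checked against the spread between rats.

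The junction genes were the most abundant of the 9 and differed little between the groups. Cldn5, on chromosome 11 between 86329011 and 86358453, encodes claudin-5, the main claudin of blood-brain barrier tight junctions. It was at 50.8 FPKM in vehicle rats and 45.6 FPKM in CORT rats, a log2 ratio of -0.16. Esam, on chromosome 8 between 39997874 and 40008809, encodes an adhesion molecule of endothelial junctions, and was at 9.98 FPKM in vehicle rats and 9.40 FPKM in CORT rats, a log2 ratio of -0.086. Vwf, on chromosome 4 between 158088504 and 158219523, encodes the clotting glycoprotein that endothelium stores and releases. It was at 6.36 FPKM in vehicle rats and 4.998 FPKM in CORT rats, a log2 ratio of -0.35.

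The order of the levels with vehicle ran from Cldn5 through Esam, Vwf, Flt1, Tie1, Tek, Clec14a and Kdr to Apold1. With CORT, Flt1 stood above Vwf, and Apold1 above Tek, Clec14a and Kdr. Cldn5 made up 56.8% of the summed level in both groups. The sum of the 9 genes was 89.4 FPKM in vehicle rats and 80.2 FPKM in CORT rats, and without Cldn5 it was 38.6 and 34.7 FPKM. Without Apold1 the sum was 87.8 FPKM in vehicle rats and 76.1 FPKM in CORT rats. In bulk tissue, fewer endothelial cells and less of these RNAs per cell cannot be told apart.

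Of the 9 genes, 1 was at least 1.5-fold higher with CORT, against 4.00% of all transcripts tested, and 2 were at least 1.5-fold lower, against 4.45%. Over gene symbols, each taken by its transcript of highest mean level, the shares were 1.86% and 3.66%. The same 3 genes passed a 2-fold limit, which 1.78% of all transcripts passed upwards and 1.77% downwards. Because the differences themselves were known when the genes were chosen, nothing is read from these counts. In all, 7 of the 9 genes were lower with CORT, against 44.7% of all transcripts, and their median log2 ratio was -0.16, against 0.02 for all transcripts. The 3 genes with the largest differences are also those with the lowest mean levels, where ratios scatter most. Among the 4755 transcripts with a mean of 1 to 5 FPKM, 2.80% were at least 2-fold higher and 3.01% at least 2-fold lower, and the log2 ratios ran from -1.08 to 1.09 once the lowest and the highest 2.5% were set aside. Clec14a and Kdr lie just inside that range and Apold1 lies above it. Tek and Tie1, of the same band, lie well within it. Among the 10679 transcripts with a mean over 5 FPKM the same range ran from -0.44 to 0.45, and Cldn5, Esam, Vwf and Flt1 lie within it. Counted over all transcripts tested, 6.83% had a lower ratio than Tek, 9.26% a lower one than Vwf, 19.9% than Tie1, 20.1% than Cldn5, 28.2% than Esam and 47.5% than Flt1. The last 4 genes thus sit in the body of the distribution, and Flt1 close to its middle.

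**Figure D2:**
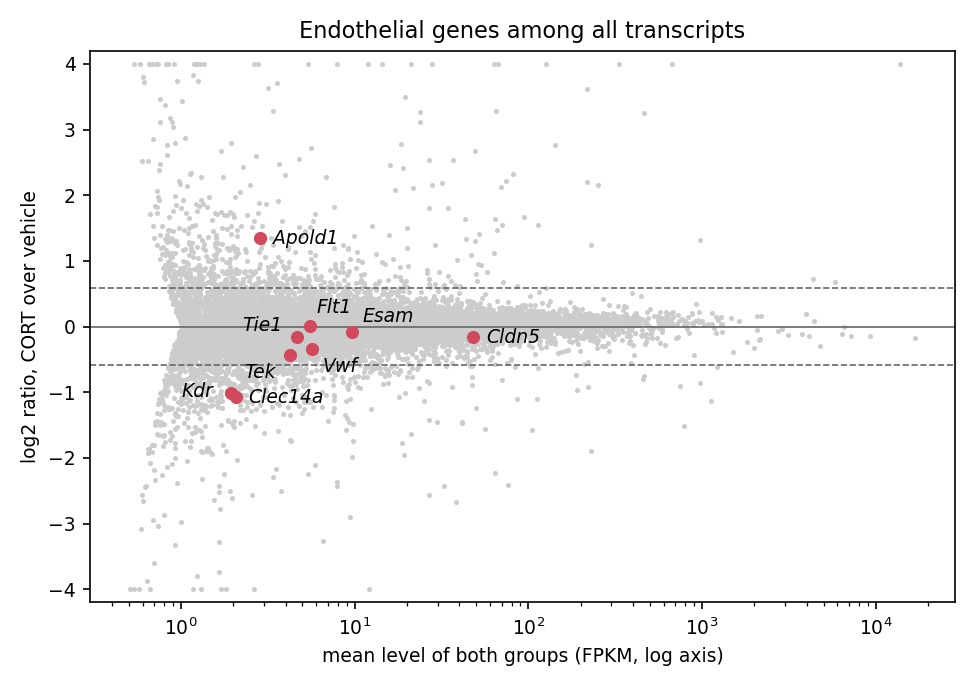
Log2 ratio of CORT over vehicle against the mean level of both groups in FPKM on a log axis, for 15808 transcripts in grey and the 9 endothelial genes in red, with dashed lines at 1.5-fold. Ratios beyond 4 on the log2 scale, 29 upwards and 10 downwards, are drawn at the edge, and the scatter of grey points is widest at the low levels where Apold1, Clec14a and Kdr lie.

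Other genes of the vessel wall were grouped in 5 lists of 74 genes, with 1 transcript taken per symbol, the one of highest mean level. Of these genes, 59 had 1 FPKM or more in either group. None was at least 1.5-fold higher with CORT and 7 were at least 1.5-fold lower, where 1.86% and 3.66% of all gene symbols were. Of the 7, Ccl2 reached 1 FPKM only with vehicle.

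The ligands and partners of the receptors named above stayed within 1.5-fold, and 9 of the 13 genes were tested. Vegfa, the ligand of Flt1 and Kdr, was the most abundant, at 27.7 FPKM in vehicle rats and 29.2 FPKM in CORT rats, a log2 ratio of 0.08. Angpt2, a ligand that can oppose signalling through Tek, was at 1.43 FPKM in vehicle rats and 0.985 FPKM in CORT rats, a log2 ratio of -0.54. Cd93, a surface lectin of the same family as Clec14a, was at 2.41 and 1.77 FPKM, a log2 ratio of -0.44. Ptprb, a phosphatase that acts on Tek, was at 1.14 FPKM in vehicle rats and 1.45 FPKM in CORT rats, a log2 ratio of 0.34. The median log2 ratio of the list was -0.074.

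Among other endothelial identity genes, 20 of 22 were tested and all 20 were lower with CORT, against 44.7% of all transcripts tested. Their median log2 ratio was -0.28, against 0.02 for all transcripts. The 44.7% and the 0.02 count every transcript, whereas the list takes 1 per symbol. The same values over symbols were not computed. Of these 20 genes, 3 were at least 1.5-fold lower, against 3.66% of all gene symbols. Fli1, an ETS factor of endothelium and blood cells, was at 3.02 FPKM in vehicle rats and 1.61 FPKM in CORT rats, a log2 ratio of -0.91. Podxl, a sialomucin of the vessel surface, was at 5.69 and 3.23 FPKM, a log2 ratio of -0.81. Egfl7, a factor that endothelium secretes, was at 14.2 and 9.22 FPKM, a log2 ratio of -0.62. The most abundant, the sphingosine-1-phosphate receptor gene S1pr1, which astrocytes also express, was at 61.7 FPKM in vehicle rats and 59.5 FPKM in CORT rats. The shared sign is of small differences for most of these genes, since 17 of the 20 were within 1.5-fold.

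Genes of the blood-brain barrier differed in both directions, with a median log2 ratio of -0.13 over 14 genes tested of 16. Lef1, a transcription factor of the Wnt pathway that maintains the barrier, was at 3.38 FPKM in vehicle rats and 2.04 FPKM in CORT rats, a log2 ratio of -0.73. Apcdd1, a Wnt inhibitor, was at 15.7 and 10.3 FPKM, a log2 ratio of -0.60. Towards higher levels, Mfsd2a, which carries lipids with omega-3 fatty acids into the brain, was at 8.55 FPKM in vehicle rats and 12.1 FPKM in CORT rats, a log2 ratio of 0.51. Abcg2, a drug efflux pump, was at 0.804 and 1.17 FPKM, a log2 ratio of 0.55. Both stayed short of 1.5-fold. Bsg, a glycoprotein of many brain cells and the most abundant of the list, was at 582 FPKM in vehicle rats and 599 FPKM in CORT rats.

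Notch genes and artery or vein genes had a median log2 ratio of 0.12 over 10 genes tested of 13, and none passed 1.5-fold. Hes1, a target of Notch signalling, was at 7.00 FPKM in vehicle rats and 10.2 FPKM in CORT rats, a log2 ratio of 0.54. Notch4, a Notch receptor typical of endothelium, was at 2.24 and 2.93 FPKM, a log2 ratio of 0.39, and Notch1 was at 5.94 and 4.51 FPKM, a log2 ratio of -0.40.

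Of the endothelial activation genes, 6 of 10 were tested. Of these, 2 passed 1.5-fold, both lower with CORT, against 3.66% of all gene symbols. Ccl2, a chemokine that draws monocytes, was at 1.18 FPKM in vehicle rats and 0.234 FPKM in CORT rats, a log2 ratio of -2.33. It reached 1 FPKM only with vehicle, so the filter kept it through its higher value. Edn1, which encodes the vasoconstrictor endothelin-1, was at 2.23 and 1.43 FPKM, a log2 ratio of -0.64. Klf2, a factor that rises with blood flow, was at 2.42 FPKM in vehicle rats and 3.50 FPKM in CORT rats, a log2 ratio of 0.53, and Vcam1, an adhesion molecule for leukocytes, was the most abundant, at 16.4 and 14.4 FPKM.

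**Figure D3:**
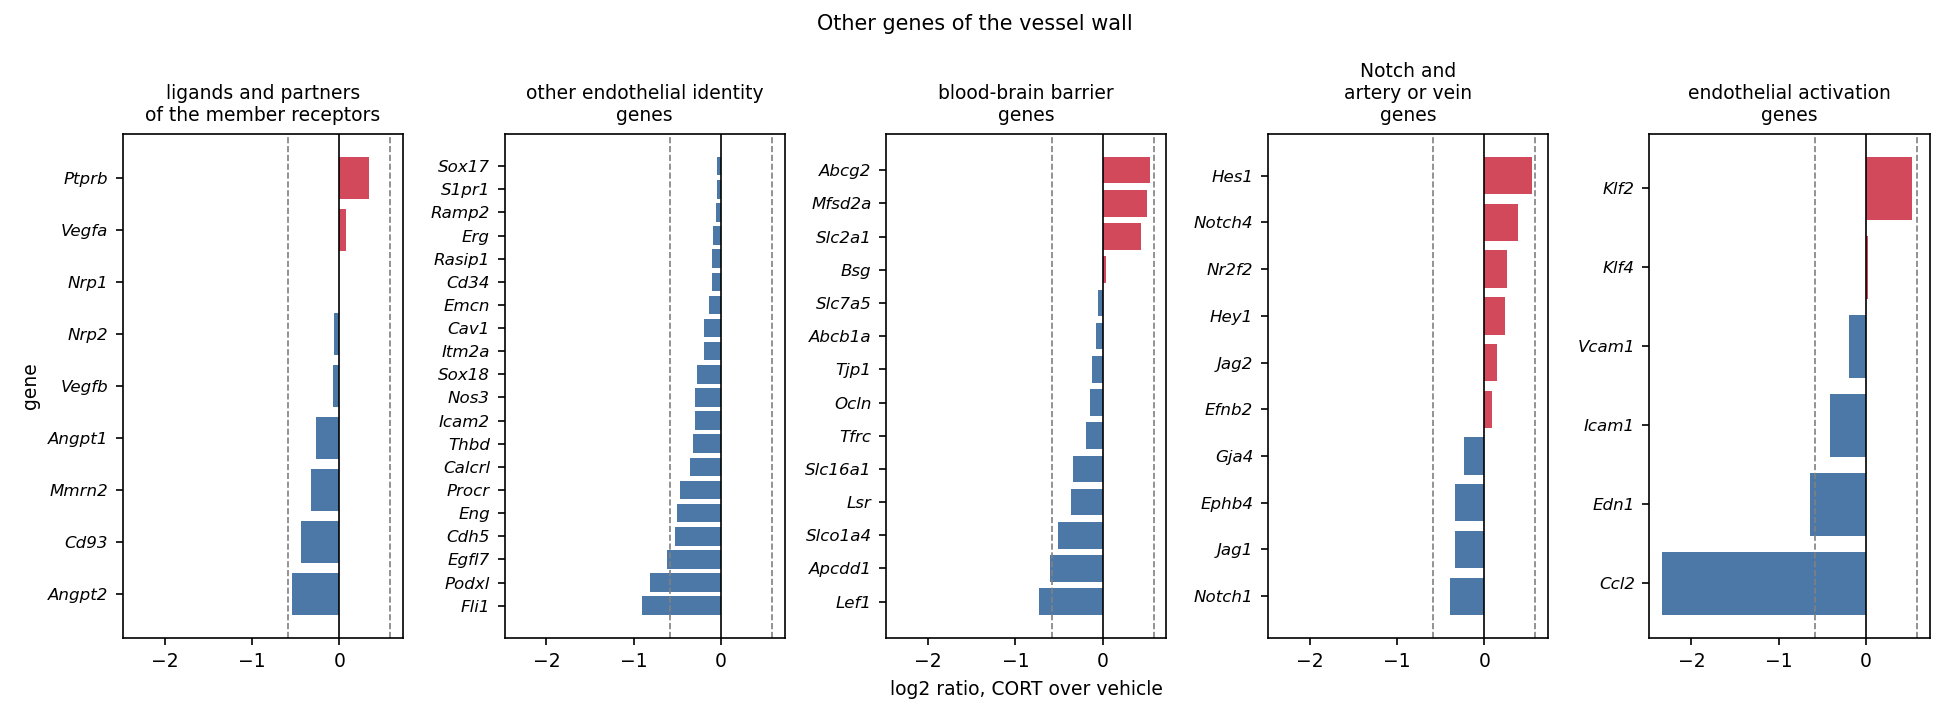
Log2 ratio of CORT over vehicle for the 59 other vessel wall genes tested, 1 bar per gene in 5 panels by list, with bars to the left in blue for lower and to the right in red for higher levels with CORT and dashed lines at 1.5-fold. No bar crosses the right line, 7 cross the left one, and all 20 bars of the endothelial identity list point left.

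Markers of cells that accompany vessels are set beside the endothelial values here, and most of them were lower with CORT. Of 13 mural cell markers tested, genes of pericytes and vascular smooth muscle, 5 were at least 1.5-fold lower, against 3.66% of all gene symbols, and the median log2 ratio was -0.43. Among the 5, Cnn1, at 1.06 and 0.198 FPKM, reached 1 FPKM only with vehicle. The other 8 were within 1.5-fold, and 1 of them, the pericyte and oligodendrocyte precursor gene Cspg4, was higher with CORT, with a log2 ratio of 0.21. Their summed level was 216 FPKM in vehicle rats and 107 FPKM in CORT rats. Most of that gap was Tagln, a smooth muscle gene and the most abundant of the list, at 105 FPKM in vehicle rats and 22.5 FPKM in CORT rats, and without it the sums were 111 and 84.6 FPKM. The pericyte receptor gene Pdgfrb was at 6.14 and 3.47 FPKM, a log2 ratio of -0.82.

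Of 11 meningeal fibroblast markers tested, 5 were at least 1.5-fold lower, against the same 3.66%, with a summed level of 194 FPKM in vehicle rats and 147 FPKM in CORT rats and Igf2 as the most abundant gene. Among them Col1a1, a collagen gene, was at 7.66 and 3.44 FPKM. The other 6 were within 1.5-fold, and 1 of them, the proteoglycan gene Dcn, was higher with CORT, with a log2 ratio of 0.095. All 5 blood cell markers tested were at least 1.5-fold lower, again beside 3.66% of all symbols, and their sum was 1421 FPKM in vehicle rats and 812 FPKM in CORT rats. The most abundant, the haemoglobin gene Hba1, was at 583 and 347 FPKM, and Ptprc, the leukocyte gene for CD45, at 1.79 and 0.617 FPKM. Ptprc thus reached 1 FPKM only with vehicle. Hba1 has near-identical copies, so its reads may be split between them. The 3 lists named 14, 12 and 8 genes, none of the tested markers was at 0 in either group, and none was at least 1.5-fold higher with CORT. The part of mural, meningeal or blood cells in the endothelial differences was not tested.

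Markers of other brain cells had list medians closer to 0 than those of mural, meningeal and blood cells. The median log2 ratio was -0.094 for 10 astrocyte markers, -0.23 for 10 microglial markers, -0.24 for 10 oligodendrocyte markers and -0.017 for 9 choroid plexus markers. Hippocampal neuron markers had a median of 0.10 over 10 genes, and their most abundant gene, Nrgn, was at 1137 FPKM in vehicle rats and 1254 FPKM in CORT rats, as fits the labelled tissue. Summed levels with vehicle and with CORT were 3093 and 2693 FPKM for astrocytes, 350.4 and 301.2 FPKM for microglia, 5740 and 4784 FPKM for oligodendrocytes, 6797 and 6779 FPKM for choroid plexus and 4037 and 4277 FPKM for neurons. The astrocyte list held 3 genes at least 1.5-fold lower, beside 3.66% of all symbols, among them Gfap, which encodes the astrocyte filament protein, at 970 FPKM in vehicle rats and 517 FPKM in CORT rats. In the same list 4 genes were higher with CORT, all within 1.5-fold, and S100b, the most abundant, was at 1066 and 1095 FPKM. The microglial list held 1 gene at least 1.5-fold higher, beside 1.86% of all symbols, against the direction of its other 9. It was Tmem119, at 5.72 and 11.2 FPKM, a log2 ratio of 0.96. The oligodendrocyte list held 1 gene at least 1.5-fold lower, beside 3.66% of all symbols. It was the myelin gene Opalin, at 101 and 65.8 FPKM, a log2 ratio of -0.61.

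Apold1 shared its direction with most tested genes of 2 lists of inducible genes. Of 16 immediate early genes, 13 were tested, and 6 of these were at least 1.5-fold higher with CORT, against 1.86% of all symbols. None of the 13 was lower by that much, against 3.66%, and their median log2 ratio was 0.55. Cyr61, at 0.962 and 0.540 FPKM, a log2 ratio of -0.83, was under 1 FPKM in both groups and so was not counted. Fosb, 1 of the 6, was at 0.600 and 1.12 FPKM. Egr2, which encodes a zinc finger transcription factor, had the highest ratio of the list, 1.92, from 0.312 and 1.18 FPKM. Like Fosb, Egr2 reached 1 FPKM only with CORT, so the filter kept these genes through their higher value. Fos, which encodes a subunit of AP-1, was at 2.87 FPKM in vehicle rats and 5.38 FPKM in CORT rats, a log2 ratio of 0.91. The 1.35 of Apold1 thus lies between the ratios of Fos and Egr2, the latter from a vehicle level under 1 FPKM. Npas4, a neuronal activity gene, was the one tested gene below 0, at 1.06 and 0.865 FPKM, a log2 ratio of -0.30. Of 14 glucocorticoid targets tested, 12 were at least 1.5-fold higher and none was lower by that much, beside the same 1.86% and 3.66%, with a median of 0.91. The highest ratio was that of Pdk4, which encodes a kinase that restrains glucose oxidation, 2.54 from 1.39 and 8.11 FPKM. Mt2A, a metallothionein gene and the most abundant with vehicle, was the one tested gene below 0, at 70.5 FPKM in vehicle rats and 49.5 FPKM in CORT rats, a log2 ratio of -0.51. Sgk1, which encodes a kinase known to be induced by corticosteroids in many cells, had a log2 ratio of 1.31, next to that of Apold1, from a level of 28.5 FPKM with vehicle. Both lists were written with earlier results of these data known, so their direction is no independent evidence. In which cells of the tissue Apold1 was expressed was not measured.

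**Figure D4:**
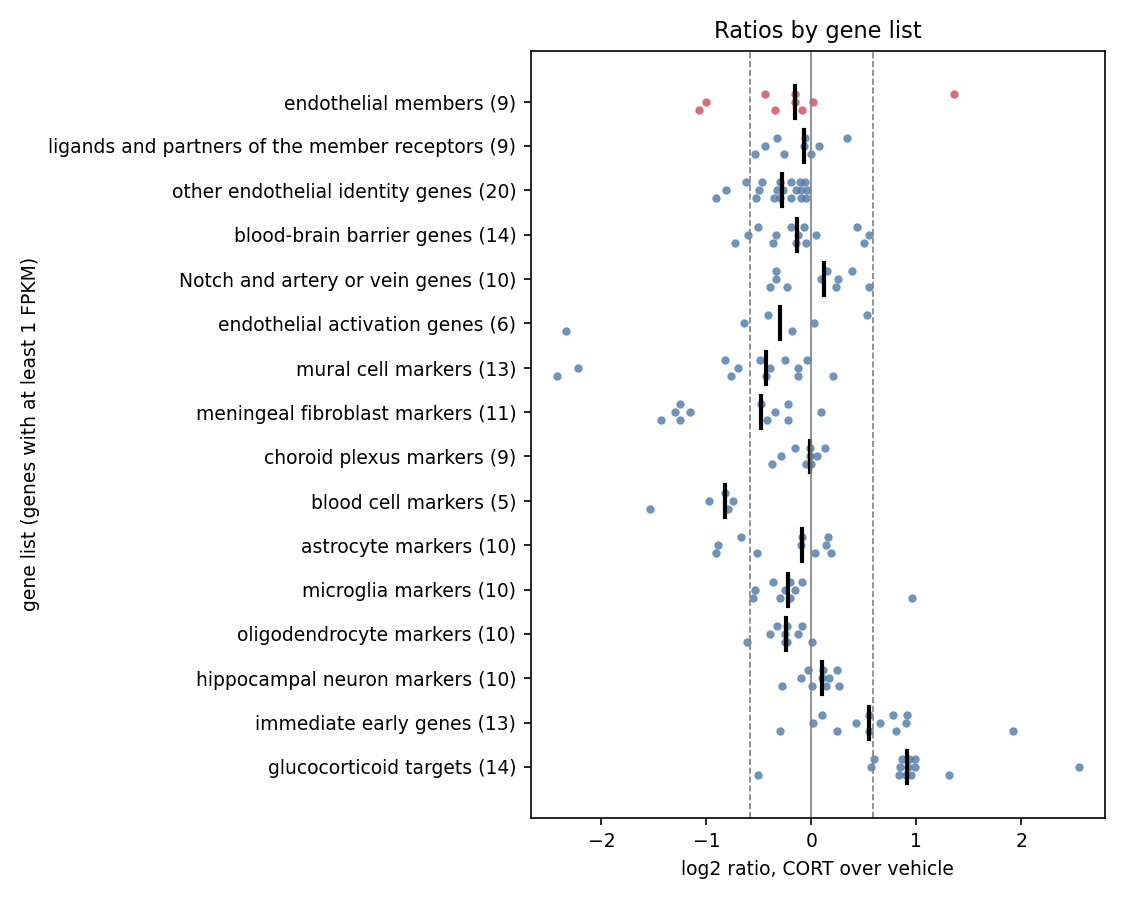
Log2 ratio of CORT over vehicle for the genes of 16 lists with 1 FPKM or more in either group, with the number of genes in brackets, 1 dot per gene, a black bar at the median and dashed lines at 1.5-fold. The endothelial genes in red centre on -0.16 with Apold1 far to the right, between the medians of 0.55 for immediate early genes and 0.91 for glucocorticoid targets and their highest genes. Some genes, Egr2, Fosb, Ccl2, Cnn1 and Ptprc among them, reached 1 FPKM in 1 group only.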

How the data were processed

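RNA from whole hippocampi of 8 rats, 4 in each group, was sequenced from stranded total RNA libraries. The submitters' processing notes name CASAVA 1.8.2, TopHat2 2.0.10 and Cuffdiff 2.2.0. Per the methods, the authors aligned reads to rn6 and estimated transcript levels with geometric normalization between libraries and corrections for bias and for reads mapping to several places. The deposited FPKM values are 1 per group and transcript, and they were used as the authors' values, without SD or n. The deposited table also holds the authors' fold changes, test statistics, p-values and q-values, none of which was used.

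Ratios were computed here as log2 of the CORT over the vehicle FPKM with no pseudocount, for transcripts with 1 FPKM or more in either group, and a limit of 1.5-fold was used for counts. With 1 level per group no test was run here. Related gene lists were read from the most highly expressed transcript of each symbol. Genes named from a list were taken from the 2 with the highest and the 2 with the lowest ratios, the most abundant gene and those past 1.5-fold. The members, lists and motifs were chosen with earlier results of these data known. Counting was tested on vehicle levels copied to both groups, with known folds applied and no noise added. That checks the counting and not how calls behave at low levels. Python 3.11.15, numpy 2.4.6, pandas 2.3.3 and matplotlib 3.10.9 were used. The alternatives were pseudocounts of 1 and 0.1 FPKM, centring on the median, other filters and folds, and summing the transcripts of a symbol. The precision of a single FPKM value depends on fragment counts per rat, which the table used does not give.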

Additional observations from a re-analysis of the deposited data

How the results depend on the processing

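Of 125 recomputed values, 116 kept their sign and moved by less than 0.1 on the log2 scale or, for counts, by at most 1.5 times. Several settings could hardly move the values, as given below, so this count does not measure stability. With a pseudocount of 1 FPKM, the log2 ratios were 0.97 for Apold1, -0.71 for Clec14a and -0.65 for Kdr, all 3 still past 1.5-fold. With the same pseudocount Apold1 lay 1.68 above Clec14a and 1.19 above the median of the other genes, and the median of mural cell markers was -0.27. With a pseudocount of 0.1 FPKM, Apold1 lay 2.32 above Clec14a. The pseudocount adds most to low values, by construction. Centring on the median of all transcripts, 0.02, turned the sign of Flt1, to -0.010. It shifts every ratio by that same amount, under the limit of 0.1, so it could change only a sign or a count. With the lower of the fold limits tried, 4 genes were lower in place of 2, the others being Tek and Vwf. Without Apold1 the median of the endothelial genes was -0.25. That setting and those for the related lists were added once the values were known. Summing the transcripts of a symbol left the endothelial values as they were, since each has 1 transcript, and the filters on low values left them in place as well.

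Leaving out each rat in turn was not run, because the values used are 1 per group. No paired analysis was possible because each group has a single value, in which no rat can be matched to another. The table gives no fragment counts, and how precisely the genes near 1 FPKM were measured, Apold1, Clec14a and Kdr among them, cannot be stated.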
